A study of Mus musculus with 32 samples.

Results

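The subject is a set of 34 mouse genes of mitosis, measured across cultured B cell lymphomas, normal B cells and lymphoma cells given a BTK inhibitor. They are a list of names, and no threshold on a value selects them, though the list was drawn up with earlier results of these data known. Each is a symbol on the array, Cdk1 also under its older name Cdc2a, and each gene is read from its brightest probe. They are 34 of 34797 genes named on the array. All 34 have a probe there, 51 probes in all, and 33 could be tested on the arrays read against the RNA pool and 32 on the drug arrays. Aurkb, the kinase of the chromosomal passenger complex, did not rise well above background on a single array, so it has no level and no test.

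Each array compared 2 RNA samples, 1 labelled with Cy5 (red) and 1 with Cy3 (green), and every value is a log2 ratio of Cy5 over Cy3. On 24 arrays a B cell sample (Cy5) was read against a common RNA pool (Cy3) mixed from the tumours, GC B cells and splenic B cells, stimulated or not, of either genotype. The tested cells were 9 lymphoma lines from spleens of ATMKO.CD3epsilonKO mice, which lack ATM, a kinase that signals DNA breaks, and CD3 epsilon, without which T cells do not mature. Germinal centre (GC) B cells came from ATMWT mice immunised with sheep red blood cells. Splenic B cells of ATMKO.CD3epsilonKO mice received goat antibody against mouse IgM (anti-IgM, 15 ug/ml) for 3, 6 or 24 h, and those of ATMWT.CD3epsilonKO mice for 6 h. Untreated splenic B cells of both genotypes were the controls, so they lack CD3 epsilon as the lymphomas do. On 8 further arrays lymphoma lines 178119 and 28545, of the same ATMKO.CD3epsilonKO origin, had received 100 nM PCI-32765 for 1, 3, 6 or 24 h (Cy5) and were set against the same line in the vehicle DMSO for the same time (Cy3). PCI-32765 is ibrutinib, an irreversible inhibitor of BTK, a kinase that relays B cell receptor signals. Averaging repeat arrays of 1 sample left 9 lymphoma lines, 1 GC sample, 2 untreated samples, 2 samples at 6 h of anti-IgM and 1 each at 3 and 24 h. The 6 h samples also carry a treatment time of 3 hours in 1 label field, and their title was followed.

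Cells enter mitosis when CDK1, bound to cyclin A2 or a B-type cyclin, phosphorylates its many targets. Polo-like and Aurora kinases then build the spindle, kinetochores tie chromosomes to microtubules, and the spindle checkpoint holds the anaphase-promoting complex (APC/C) in check until all chromosomes are attached. CDC20 and UBE2C then let the complex mark cyclin B1 for destruction, and the central spindle directs the division of the cell. Most of these mRNAs rise from S phase to mitosis in cycling cells and are low in resting cells, as naive splenic B cells are, whereas GC B cells are among the most rapidly dividing normal cells. In bulk RNA a smaller share of dividing cells and less of these mRNAs per dividing cell cannot be told apart.

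Genes of this wave are known for promoters with CCAAT boxes, which NF-Y binds, and for the cell cycle genes homology region (CHR), which the MuvB complexes bind. Promoter windows from RefSeq (GRCm38.p6, 250 bases before to 50 bases after the transcription start, 300 bases each) were found for 28 of the 34 genes. Both strands were searched for TTTGAA and TTCGAA (CHR) and for CCAAT. A CHR match lay in 21 of 28 windows (75%), against 5254 of 27025 promoters of all genes (19.4%). CCAAT lay in 23 of 28 (82.1%), against 37.9% of all promoters, and both motifs lay in 20 of 28 (71.4%), against 7.7%. Only 2 pairs of these matches overlapped. A match describes the letters alone. The windows below belong to 5 genes whose values recur in the results, with all matches to either motif in capitals, as the strand of the gene reads 5′ to 3′. ATTGG and TTCAAA are the same motifs read on the other strand.
Cdk1, chr10:69352863-69353162, minus strand: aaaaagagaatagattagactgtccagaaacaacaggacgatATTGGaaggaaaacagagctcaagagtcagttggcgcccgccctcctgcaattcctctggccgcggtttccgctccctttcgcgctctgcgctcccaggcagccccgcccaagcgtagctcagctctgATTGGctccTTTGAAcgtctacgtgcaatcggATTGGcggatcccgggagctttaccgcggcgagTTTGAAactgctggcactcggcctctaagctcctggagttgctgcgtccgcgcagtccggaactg
Top2a, chr11:99024140-99024439, minus strand: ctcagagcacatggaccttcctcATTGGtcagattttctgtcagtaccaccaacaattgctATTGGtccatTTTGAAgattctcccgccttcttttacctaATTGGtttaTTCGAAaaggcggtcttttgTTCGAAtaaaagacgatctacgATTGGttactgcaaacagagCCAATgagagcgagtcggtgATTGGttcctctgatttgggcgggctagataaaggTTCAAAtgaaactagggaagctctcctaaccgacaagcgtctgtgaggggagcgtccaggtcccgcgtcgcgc
Plk1, chr7:122159185-122159484, plus strand: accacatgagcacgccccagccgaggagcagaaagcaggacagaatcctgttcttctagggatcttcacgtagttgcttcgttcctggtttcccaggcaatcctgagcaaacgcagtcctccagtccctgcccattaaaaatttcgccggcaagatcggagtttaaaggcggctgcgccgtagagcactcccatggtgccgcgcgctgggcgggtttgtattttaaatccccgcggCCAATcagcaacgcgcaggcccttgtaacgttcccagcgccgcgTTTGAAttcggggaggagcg
Cdc20, chr4:118437294-118437593, minus strand: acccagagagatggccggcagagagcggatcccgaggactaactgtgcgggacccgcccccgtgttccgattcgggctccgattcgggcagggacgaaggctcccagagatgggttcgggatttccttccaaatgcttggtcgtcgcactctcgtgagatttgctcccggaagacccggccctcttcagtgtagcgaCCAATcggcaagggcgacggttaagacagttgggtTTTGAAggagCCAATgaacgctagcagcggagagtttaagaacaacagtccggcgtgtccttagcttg
Ccnb1, chr13:100786437-100786736, minus strand: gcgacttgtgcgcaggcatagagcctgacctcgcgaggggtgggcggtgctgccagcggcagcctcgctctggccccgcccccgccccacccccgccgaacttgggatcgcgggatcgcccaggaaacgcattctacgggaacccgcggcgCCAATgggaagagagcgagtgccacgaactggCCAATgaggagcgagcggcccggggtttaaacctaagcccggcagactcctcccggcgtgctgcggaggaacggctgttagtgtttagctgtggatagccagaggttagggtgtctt
The Top2a window held 6 CCAAT matches and 4 CHR matches, the Cdk1 window 3 and 2, the Cdc20 window 2 and 1 and the Plk1 window 1 and 1. The Ccnb1 window held 2 CCAAT matches and none of the CHR letters. Ccnb1, Nek2, Mad2l1, Birc5, Cenpe, Nuf2 and Nusap1 had no CHR match in the window.

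In the sample channel 45.6% to 60.7% of spots were well above background on the arrays used, apart from line 28545 at 24 h of drug (85.5%). The first GC array (29.4%) and the first array of line 1039 (21.9%) were left out, since other arrays of those samples exist. Their median over the mitosis genes was 0.06 and 0.29, against 1.1 and 1.11 on the other GC arrays and 1.08 on the other array of 1039. Of the tested genes, 33 were above background on every array used and none was saturated. Atm, the deleted gene, read -1.54 to -0.51 in the lymphoma lines and -0.98 to -0.34 in ATMKO B cells, against 0.42 to 1.04 in ATMWT cells, GC cells included. All 8 B cell markers examined were above background in all samples. Erythroid, neutrophil, T and NK cell and macrophage markers read lower in the lymphoma lines and GC cells than in untreated samples. The summed red signal of 12 erythroid markers was 9423 to 25962 in lymphoma lines and 13532 in GC cells, against 184920 to 231444 in untreated samples, where all 12 were above background. For 9 neutrophil markers it was 4083 to 6727 in lymphoma lines and 7053 in GC cells, against 413940 to 424332 in untreated samples. For 12 T and NK cell markers it was 12178 to 52720 in lymphoma lines and 32264 in GC cells, against 86994 to 108717 in untreated samples. For 9 macrophage markers it was 6503 to 11409 in lymphoma lines and 14748 in GC cells, against 61436 to 66582 in untreated samples. The sum of 6 plasma cell markers was 82145 to 280261 in lymphoma lines and 88026 in GC cells, against 168415 to 187488 in untreated samples, and it lay above the untreated samples in lines 1004, 1007 and 1039. Epb4.2 and Rhag of the erythroid list did not count as above background in GC cells, in any of the 9 lymphoma lines or in the anti-IgM 24 h sample. Precision is set by how many arrays there are. The labels do not say how many animals gave each normal sample, so p-values measure the spread between these samples.

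All 33 tested genes were higher in the lymphoma lines than in untreated B cells, by a median of 1.87 log2 units (3.66-fold). The difference ran from 0.82 for Cenpf to 2.84 for Spc25. Each gene passed the limma test at an adjusted p below 0.05, whereas 18.6% of the 21541 genes tested were called higher. In 33 of 33 genes every lymphoma line lay above both untreated samples, as in 19.9% of all genes tested. How far the blood cell markers above move with this difference was not tested. Within slides 2, 3 and 4, each holding lymphoma and untreated arrays, all 33 differences were positive as well, with medians of 1.57, 1.83 and 2.20. These slides are not independent: slide 4 repeated lines 1001 and 1010 of slide 2 and the untreated ATMKO sample of slide 3. The share of all genes positive on each slide was not counted.

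**Figure D1:**
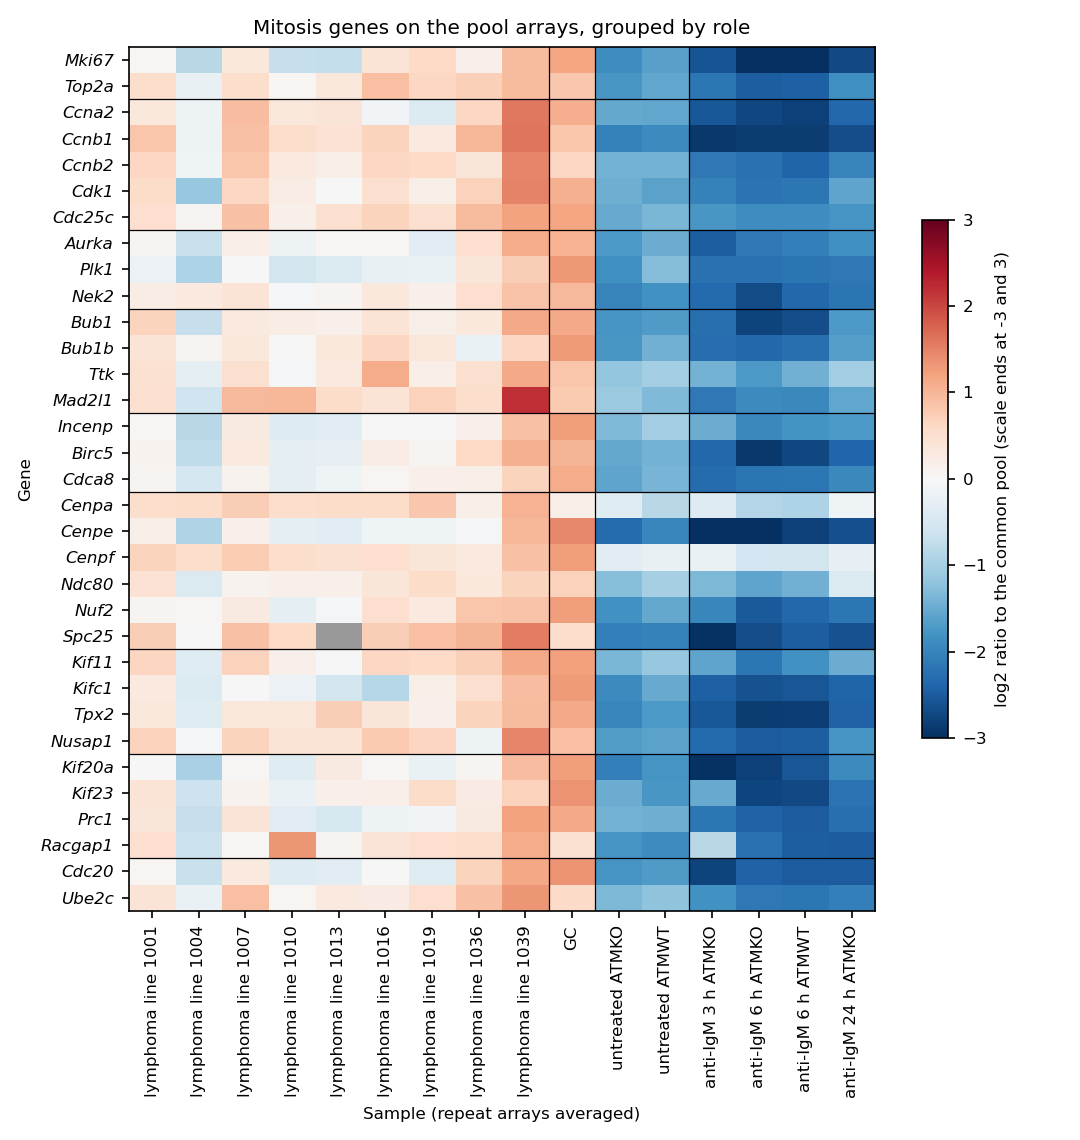
Heat map of the log2 ratio to the common pool for the 33 mitosis genes with a level (rows, grouped by role) in 16 averaged samples (columns). The colours run from below to above the pool, and grey marks the missing value of Spc25 in line 1013. All 33 genes lie above the pool in line 1039 and GC cells and below it in the anti-IgM and untreated samples.

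Among the regulators of CDK1, all 5 rose. Ccnb1, which encodes cyclin B1, read -0.15 at the lowest, 0.66 at the median and 1.60 at the highest in the 9 lymphoma lines, against -1.91 (ATMWT) and -2.03 (ATMKO) in untreated B cells. The lines thus lay far above both untreated samples, by 2.65 ± 0.32 (SE, adjusted p = 2.54e-05 by limma), a 6.26-fold difference. Cdk1, the kinase itself, read -1.14, 0.49 and 1.48 (lowest, median and highest line), against -1.61 and -1.46 in untreated cells. Its difference was 1.88 ± 0.44 (adjusted p = 0.00421), and line 1004 lay closest to the untreated samples. Ccna2 (cyclin A2) was higher by 1.94, Ccnb2 (cyclin B2) by 1.95 and Cdc25c, a phosphatase that activates CDK1, by 2.04.

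The chromosome genes Top2a and Mki67 also rose. Top2a, the topoisomerase that untangles sister chromatids, read -0.22, 0.53 and 0.96 in the lymphoma lines (lowest, median, highest), against -1.56 and -1.75 in untreated ATMWT and ATMKO cells. That is a difference of 2.15 ± 0.25 (adjusted p = 1.97e-05). Mki67, the gene of the proliferation marker Ki-67, read -0.83, 0.16 and 0.95 in the lines, against -1.64 and -1.86. Its difference was 1.78 ± 0.41 (adjusted p = 0.0034), with no overlap between the groups.

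Among the mitotic kinases, Nek2, a kinase of centrosome separation, had the smallest adjusted p of the set (2.22 ± 0.19, adjusted p = 1.37e-06). Its 9 lines lay between -0.05 and 0.86, against -1.81 and -2.01 in untreated cells. Plk1, the polo-like kinase of mitotic entry, read -0.92, -0.20 and 0.73 in the lines, against -1.31 and -1.83. Its difference of 1.42 ± 0.33 (adjusted p = 0.00364) was among the smaller ones, and line 1004 lay closest to the untreated samples. Aurka, the Aurora kinase of spindle poles, was higher by 1.70 (adjusted p = 0.00103).

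The 4 spindle checkpoint genes were higher by 1.52 (Ttk, the MPS1 kinase) to 2.03 (Bub1, a checkpoint kinase at kinetochores). Bub1 read -0.69, 0.30 and 1.13 in the lymphoma lines and -1.70 and -1.76 in untreated cells, a difference of 2.03 ± 0.31 (adjusted p = 0.00018). Bub1b, which encodes BUBR1, rose by 1.87 and Mad2l1, which encodes the checkpoint protein MAD2, by 1.90. Both partners of the APC/C in the set rose alike. Cdc20, its activator, read -0.66, -0.02 and 1.15 in the lines, against -1.70 and -1.77, a difference of 1.78 ± 0.37 (adjusted p = 0.00184). Ube2c, its ubiquitin-conjugating enzyme, was higher by 1.77.

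The kinetochore and centromere genes held both ends of the range. Spc25 and Ndc80 encode subunits of the NDC80 complex, which grips microtubules. Spc25 read -0.01, 0.81 and 1.53 over 8 lines (missing in line 1013), against -2.02 and -2.06 in untreated cells. Its difference of 2.84 ± 0.28 (adjusted p = 7.77e-06) was the largest of the set at 7.14-fold. Ndc80 read -0.44, 0.32 and 0.67 in the lines and -0.99 and -1.27 in untreated cells, a difference of 1.39 ± 0.22 (adjusted p = 0.000235). Nuf2, another subunit, rose by 1.96 with its brightest probe, while a dimmer probe differed by -2.22, and the mean over its probes was -0.13 (adjusted p = 0.525). Cenpe, a kinetochore motor, rose by 2.08. Cenpa, the centromeric histone H3 variant, rose by 1.21 ± 0.18 (adjusted p = 0.000151), with lines from 0.18 to 1.05, against -0.84 and -0.37. Cenpf, a large kinetochore protein, rose least, by 0.82 ± 0.14 (adjusted p = 0.000361), with lines from 0.29 to 0.88, against -0.23 and -0.32.

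Spindle, passenger complex and cytokinesis genes rose too. Tpx2, which nucleates spindle microtubules, read -0.36, 0.35 and 0.96 in the lymphoma lines, against -1.72 and -1.95 in untreated cells, a difference of 2.23 ± 0.25 (adjusted p = 1.37e-05). Kif11, the motor that pushes spindle poles apart, read -0.37, 0.62 and 1.13 in the lines, against -1.14 and -1.37, a difference of 1.72 ± 0.30 (adjusted p = 0.000509). Of the other spindle genes, Nusap1, which bundles spindle microtubules, rose by 2.18 and Kifc1, a minus-end motor, by 1.69. The measured passenger complex genes had the lowest median of the roles: Birc5 (survivin) rose by 1.61, Cdca8 (borealin) by 1.52 and Incenp, the scaffold, by 1.16. In the central spindle, Racgap1 and Kif23, which together form centralspindlin, rose by 2.26 and 1.79. Kif20a, a cytokinesis motor, rose by 1.89, and Prc1, which bundles antiparallel microtubules, by 1.49. Of 15 further probes of these genes that passed the filter, 14 differed in the same direction, Nuf2 being the exception.

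**Figure D2:**
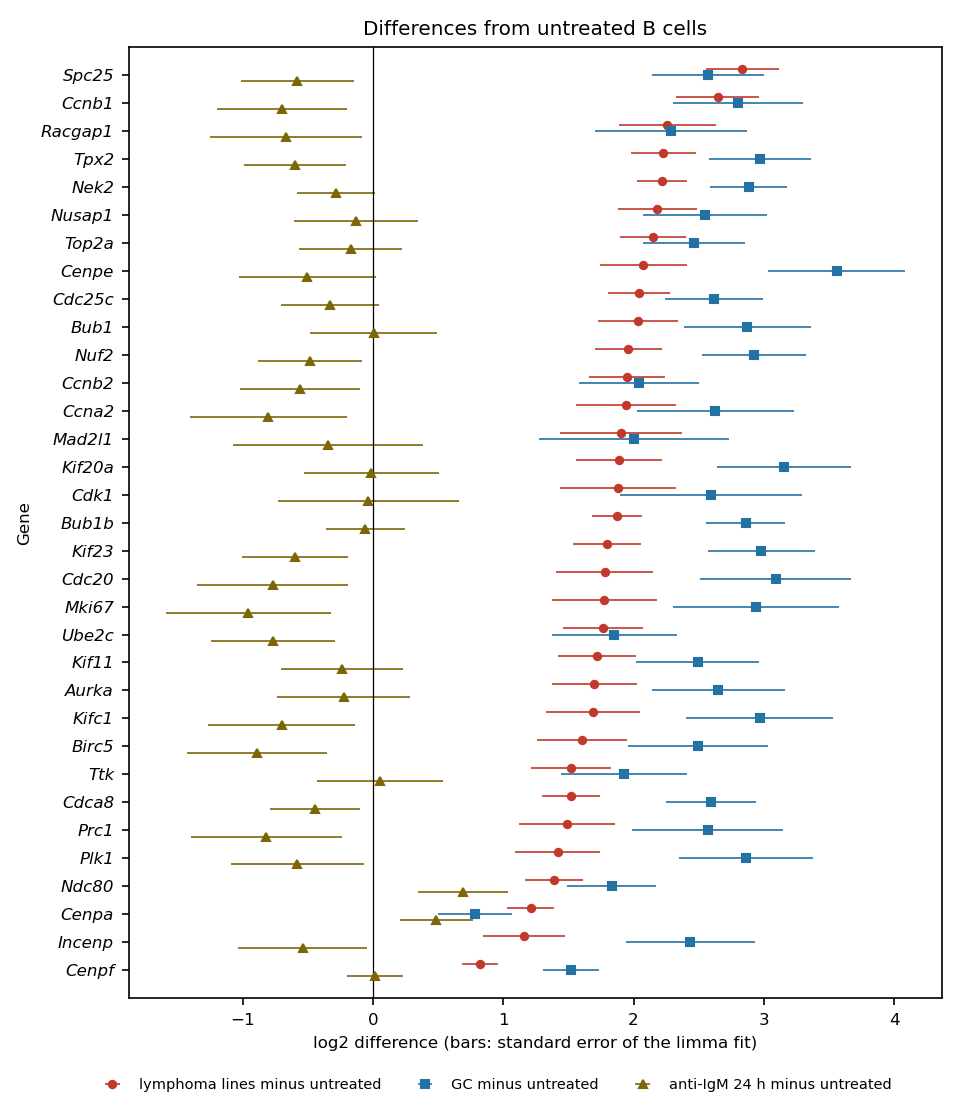
Log2 differences from untreated B cells for 33 mitosis genes, with the standard error of the limma fit as bars: lymphoma lines (circles), GC B cells (squares) and B cells at 24 h of anti-IgM (triangles). Lymphoma and GC differences all lie above 0, from 0.82 to 2.84 and from 0.78 to 3.56, while the 24 h differences lie between -0.96 and 0.69 and none passed the test.

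For GC B cells, the difference from untreated cells had a median of 2.59 over the mitosis genes, and 31 of 33 were called higher, against 10.9% of all genes tested. The largest were Cenpe (3.56), Kif20a (3.16), Cdc20 (3.09) and Kif23 (2.98). Mad2l1 (2.00, adjusted p = 0.063) and Cenpa (0.78, adjusted p = 0.0619) did not pass. The GC cells form 1 averaged sample, whose spread was taken to equal that of the other classes.

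Set against GC B cells, the lymphoma lines read lower for 31 of 33 genes, with a median difference of -0.74, and 7 passed the test as lower, against 12.7% of all genes. The 7 were Cenpe (-1.48), Plk1 (-1.45), Incenp (-1.28), Kif23 (-1.19), Cdca8 (-1.07), Bub1b (-0.99) and Cenpf (-0.69), with adjusted p from 0.0173 to 0.0474. None passed as higher. For Plk1, the lines ran from -0.92 to 0.73, against 1.30 in GC cells. The difference of -1.45 ± 0.44 (adjusted p = 0.0329) left every line below the GC sample. For Ccnb1 the lines ran from -0.15 to 1.60, on both sides of the 0.83 in GC cells (-0.16 ± 0.43, adjusted p = 0.84). Top2a (-0.32 ± 0.34, adjusted p = 0.56) and Cdk1 (-0.71 ± 0.60, adjusted p = 0.442) also straddled the GC value.

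The GC sample lay above every lymphoma line in 17 of 33 genes, as in 27.3% of all genes tested. Cenpa was the 1 gene with every line above the GC sample, as in 23.4% of all genes, and its GC value of 0.18 lay just below line 1036. Its difference was 0.43 ± 0.24 (adjusted p = 0.238). The difference was -1.17 ± 0.55 for Mki67 (adjusted p = 0.152), -1.31 ± 0.50 for Cdc20 (adjusted p = 0.079), -0.84 ± 0.42 for Bub1, -0.77 ± 0.40 for Kif11, -0.74 ± 0.34 for Tpx2 and -0.44 ± 0.30 for Ndc80, none of which passed. ATM genotype, CD3 epsilon loss and growth as a cell line differ along with the tumour state here and cannot be told apart. The number called lower was 14 without line 1039, the line with the highest values. It was 3 with the poor arrays averaged in and 0 with slide as a fixed block or with genotype as a further term. On slide 4, which held both kinds of cell, 27 of 33 genes were lower in the lymphoma arrays (median -0.61). The share of all genes lower on that slide was not counted.

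B cell receptor stimulation gave no call in the mitosis genes at any time. At 24 h of anti-IgM the genes read a median of -0.48 relative to untreated cells, with 0 of 33 passing the limma test and 0 with an unadjusted p below 0.05. Of all genes tested, 2.2% were called higher and 1.62% lower, and 14.5% had an unadjusted p below 0.05. Mki67 read -2.71 at 24 h, against -1.64 and -1.86 in untreated ATMWT and ATMKO cells (difference -0.96 ± 0.64, adjusted p = 0.584). Ndc80 read -0.44 at 24 h, against -0.99 and -1.27, the largest positive difference (0.69 ± 0.34, adjusted p = 0.399). Cenpa (0.49), Ttk (0.05) and Cenpf (0.02) were also above 0, while Birc5 (-0.89), Prc1 (-0.82) and Ccna2 (-0.80) were the lowest after Mki67. Bub1 (0.00 ± 0.49) and Cdk1 (-0.04 ± 0.70) lay at the untreated level, within wide errors. The 24 h sample is a single ATMKO array, whose spread was taken to equal that of the other classes. That shared spread came mostly from the 9 lymphoma lines, over which the mitosis genes varied more than other genes. Their median SD over the lines was 0.47, against 0.24 for all genes tested. The lack of calls at 24 h therefore cannot be set against the shares of all genes, and smaller changes could go uncalled. The erythroid marker sum at 24 h was 31799, against 184920 to 231444 in untreated cells, and the neutrophil sum 237716, against 413940 to 424332. Sums of T and NK cell (77587, against 86994 to 108717) and B cell markers (370236, against 393704 to 438093) were also lower. That of macrophage markers was higher (91301, against 61436 to 66582). The part of these markers in the 24 h values was not tested.

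At 6 h all 33 genes read below untreated cells, by a median of -0.73. None passed the limma test, and 14 had an unadjusted p below 0.05. Of all genes tested, 5.5% were called higher and 5.13% lower, and 24.3% had an unadjusted p below 0.05. Mki67 was the lowest, at -3.04 in ATMWT and -3.26 in ATMKO cells after 6 h, against -1.64 and -1.86 in untreated cells of the same genotypes (-1.40 ± 0.52, adjusted p = 0.112). Birc5 (-1.34 ± 0.44, adjusted p = 0.0743), Ccna2 (-1.22 ± 0.49), Kif23 (-1.11 ± 0.33, adjusted p = 0.0525) and Tpx2 (-0.996 ± 0.32, adjusted p = 0.068) came next. The number called lower was 5 without lymphoma line 1039 and 4 without line 1004, as these enter the shared spread. That spread came mostly from the lymphoma lines, over which the mitosis genes varied more than other genes. The counts at 6 h, and those at 3 h below, are thus not a like comparison with the shares of all genes. On slides 2, 3 and 4 the 6 h differences had medians of -0.81, -0.77 and -0.73, with 33 of 33 negative on each. Slides 3 and 4 held repeat arrays of the same ATMKO samples, so they are not independent of each other. The share of all genes negative on each slide was not counted. The erythroid marker sum was 64102 to 92382 at 6 h, against 184920 to 231444 in untreated cells, and that of neutrophil markers 281679 to 290328, against 413940 to 424332. The sums of T and NK cell markers (55431 to 68672, against 86994 to 108717) and macrophage markers (33601 to 34782, against 61436 to 66582) were also lower at 6 h. So was that of the 8 B cell markers, at 237530 to 250279, against 393704 to 438093 in untreated cells. The part of these markers in the lower values was not tested. At 3 h the median was -0.68 and 0 of 33 passed (2 with an unadjusted p below 0.05), from Kif20a at -1.06 to Racgap1 at 0.99. Of all genes, 2.76% were called higher and 5.8% lower at 3 h, and 21.9% had an unadjusted p below 0.05.

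Compared with the anti-IgM 24 h sample, the lymphoma lines were higher in 32 of 33 genes (median 2.32), against 13.5% of all genes. Every line lay above that sample in 33 of 33 genes, as in 27.5% of all genes. Spc25 (3.42), Ccnb1 (3.34), Racgap1 (2.93) and Tpx2 (2.83) differed most, and Ndc80 (0.70 ± 0.30, adjusted p = 0.091) did not pass. Mki67 was higher in the lines by 2.73 ± 0.55 (adjusted p = 0.00233). The neutrophil marker sum was 4083 to 6727 in the lines, against 237716 in the 24 h sample, and that of macrophage markers 6503 to 11409, against 91301. The part of these markers in the difference was not tested.

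No difference between ATMKO and ATMWT B cells was detectable in these genes. With stimulation accounted for, ATMKO minus ATMWT cells gave a median of -0.11 over 32 genes, from -0.31 for Cenpe to 0.26 for Cenpa, with 0 calls and 0 unadjusted p below 0.05 by limma. Of all genes, 2.35% had an unadjusted p below 0.05. In untreated cells 8 genes were higher and 25 lower in ATMKO cells (median -0.13), and at 6 h 10 were higher and 23 lower (median -0.05). Standard errors were 0.23 for Cenpa and 0.60 for Cdk1, so small differences were not detectable with these samples. These errors also rest mostly on the spread of the lymphoma lines, so the 0 calls cannot be set against the share of all genes.

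The lymphoma lines differed widely among themselves in the mitosis genes. The median SD over the 9 lines was 0.47 for the mitosis genes, against 0.24 for all genes tested. The median over the genes was lowest in line 1004 (-0.42) and highest in line 1039 (1.08), with 0.05 in 1010, 0.15 in 1013, 0.28 in 1019, 0.35 in 1007, 0.39 in 1016, 0.41 in 1001 and 0.48 in 1036. Line 1039 thus stood at the level of the GC sample (1.11). It had the highest value of the 9 lines in 31 of 33 genes, while line 1004 had the lowest in 25. The values of line 1039 rest on 1 array, on slide 4 as are the GC arrays used. The poor array of 1039 that was left out had a median of 0.29 and correlated with the kept array by 0.33. Repeat arrays of lines 1001 and 1010, GC cells and ATMKO cells at 6 h of anti-IgM differed by a median of 0.03 to 0.22 in these genes. Lines with neighbouring medians, such as 1007, 1016 and 1001, were thus not told apart. The first untreated ATMKO array correlated with its repeats by 0.76 and 0.77 over detected probes, against 0.91 to 0.98 between other repeats used. Its median over the mitosis genes was -1.63, against -1.72 and -1.71 on those repeats.

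Most of the genes ran in parallel over the lines. As a description, each gene's correlation with the median of the other genes over 9 lines had a median r of 0.89, from 0.43 to 0.98, and a median of 0.82 without line 1039. Without that line r was -0.17 for Cenpa, -0.02 for Cenpf, 0.23 for Bub1b and 0.33 for Nek2. All values of a line come from the same array or arrays. Mad2l1 varied most over the lines (SD 0.73), reaching 2.19 in line 1039 and -0.61 in line 1004. Cdk1 came next (SD 0.70). Cenpf (SD 0.19), Cenpa (SD 0.24) and Nek2 (SD 0.26) varied least. The 2 genes not highest in 1039 were Racgap1, highest in line 1010 (1.32), and Bub1b, highest in line 1016 (0.64). Line 1036 had the lowest Bub1b (-0.20), Nusap1 (-0.15), Cenpa (0.18) and Cenpf (0.29) although its median over all genes of the set was the second highest.

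At 24 h of PCI-32765, 26 of 32 mitosis genes were lower in drug-treated than in vehicle-treated lymphoma cells, and none higher. The median ratio was -0.57 (1.49-fold lower), against -0.01 over all genes tested, and 12.9% of all genes were called lower. In 30 of 32 genes both lines read below 0, whereas 36.1% of all genes did. Without loess, with only the median of each array set to 0, none of the 26 passed and the median was -0.079. That centring moved the median of all genes tested to 0.62, 0.62, 0.25 and 0.31 at 1, 3, 6 and 24 h, and the 3796 genes whose brightness lay within the interquartile range of the mitosis genes to 0.81, 0.84, 0.35 and 0.43. Relative to those equally bright genes the median at 24 h was -0.51 with centring alone, -0.57 with loess and -0.58 with the scanner's own log ratios, and all 32 genes lay below the median of the equally bright genes with centring alone. The drug was always in Cy5, so a dye effect and a drug effect cannot be told apart. The values below are those with loess unless centring alone is named.

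Bub1 and Top2a fell most at 24 h with loess. Bub1 read -1.18 in line 178119 and -0.56 in line 28545 (mean -0.87 ± 0.14, SE, adjusted p = 0.00273), so treated cells had 54.7% of the vehicle level. Top2a read -1.03 and -0.70 (mean -0.87 ± 0.11, adjusted p = 0.00141). Both genes were lower in both lines. Ccnb1 followed at -0.86 in 178119 and -0.72 in 28545 (mean -0.79 ± 0.11, adjusted p = 0.00122), and Bub1b at -0.87 and -0.65 (mean -0.76 ± 0.10, adjusted p = 0.00103).

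The other CDK1 genes were also lower with loess: Cdc25c averaged -0.73, Cdk1 -0.69 ± 0.12 (adjusted p = 0.00316), Ccna2 -0.58 and Ccnb2 -0.56. Cdk1 read -0.93 in 178119 and -0.45 in 28545. Of the kinases, Aurka averaged -0.72 and Plk1 -0.65 ± 0.13 (adjusted p = 0.00586), with Plk1 at -0.73 and -0.57 in the 2 lines. Nek2, by contrast, read 0.17 in 178119 and -0.16 in 28545 (mean 0.00 ± 0.11, adjusted p = 0.988). The checkpoint kinase Ttk averaged -0.68, while Mad2l1 read -0.56 and -0.06 and did not pass (mean -0.31, adjusted p = 0.17). With centring alone none of these passed, Bub1 (-0.45), Top2a (-0.38), Ccnb1 (-0.29) and Cdk1 (-0.29) still read below 0, and Ccnb2 read 0.02.

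All 3 measured passenger complex genes were lower at 24 h, Birc5 averaging -0.71, Cdca8 -0.50 and Incenp -0.44, whereas with centring alone they read -0.07, 0.09 and 0.16. Of the APC/C partners, Ube2c averaged -0.56 and Cdc20 -0.38 ± 0.10 (adjusted p = 0.0223), and Cdc20 read 0.19 with centring alone (adjusted p = 0.563). In the spindle group Tpx2 averaged -0.62 ± 0.10 (adjusted p = 0.00259), Nusap1 -0.67 and Kif11 -0.55 ± 0.11 (adjusted p = 0.006). Kif11 read -0.56 in 178119 and -0.55 in 28545, almost the same in both lines. With centring alone Tpx2 (-0.16), Nusap1 (-0.17) and Kif11 (-0.15) did not pass. Kifc1 averaged -0.69 with a wide error (0.25) and did not pass either way.

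At the centromere, Spc25 averaged -0.67, Cenpe -0.62, Nuf2 -0.57 and Cenpa -0.49 ± 0.11 (adjusted p = 0.00934). With centring alone they read -0.11, -0.09, -0.16 and 0.0050. Ndc80 read -0.70 in 178119 and -0.05 in 28545 and did not pass (mean -0.37 ± 0.15, adjusted p = 0.1). Cenpf read 0.23 in 178119 and -0.25 in 28545 (mean -0.01 ± 0.12, adjusted p = 0.955), and so, like Nek2, lay on both sides of 0. In the central spindle, Racgap1 averaged -0.47, Kif20a -0.46 and Prc1 -0.40 (0.06, 0.01 and 0.11 with centring alone), while Kif23 (-0.25, adjusted p = 0.0774) did not pass. Mki67 could not be tested with its brightest probe, whose spots on both 1 h arrays were called outliers by the scanner software. With such spots kept, Mki67 averaged -0.74 at 24 h (adjusted p = 0.00197 by limma). With the mean of the probes left on each array it read 0.46 at 1 h (adjusted p = 0.0577), 0.37 at 3 h (0.031) and 0.32 at 6 h (0.0262). At 1 h only the dimmer probe was left, at 0.54 in 178119 and 0.39 in 28545. At 24 h the mean read -0.66 (adjusted p = 0.00117), and the effect at 24 h minus 1 h was -1.13 (adjusted p = 0.00184). That difference sets both probes at 24 h against the dimmer probe at 1 h, which alone read -0.59 and -0.58 at 24 h. All 16 further probes that passed the filter had a negative mean at 24 h.

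**Figure D3:**
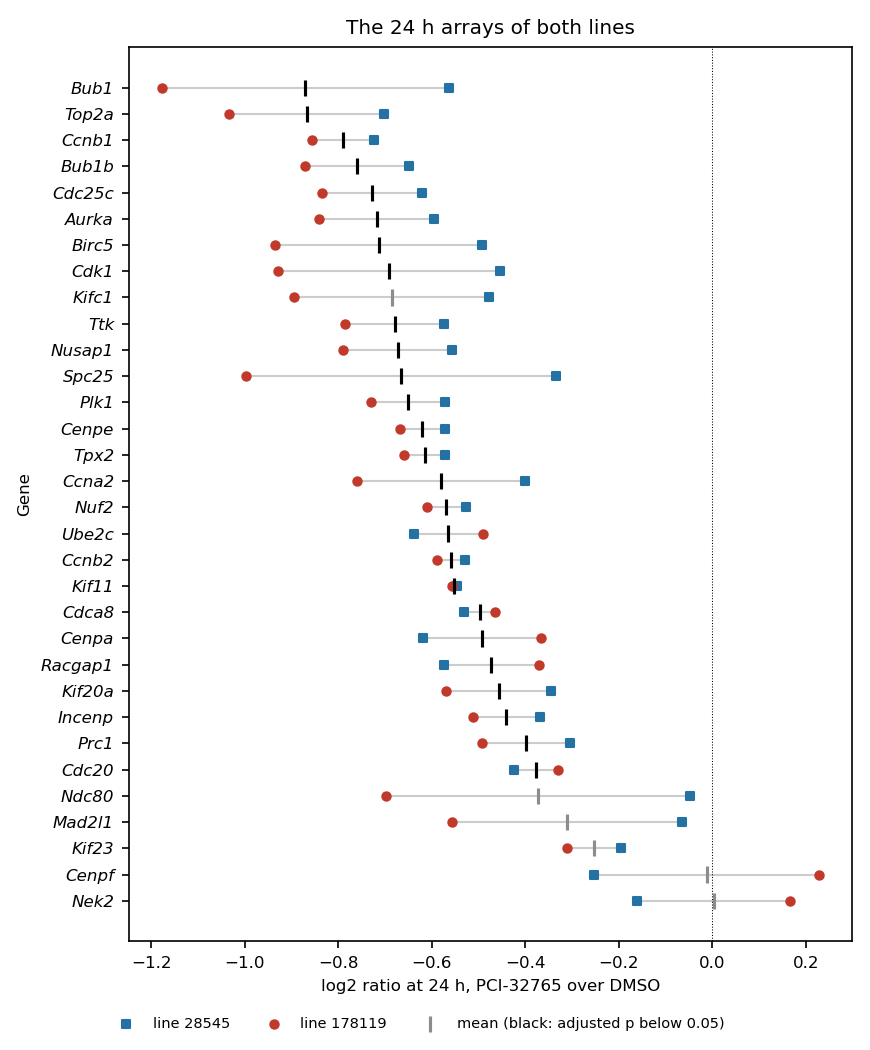
Log2 ratios of PCI-32765 over DMSO at 24 h with loess, for 32 mitosis genes in line 28545 (squares) and line 178119 (circles); the vertical tick is the mean, black where the gene passed the limma test. Of the 32 genes, 30 lie below 0 in both lines, and Cenpf and Nek2 lie on both sides; with median centring alone none passed.

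The 24 h array of line 28545 had 85.5% of red and 66.2% of green spots above background, more than any other drug array. The median over the mitosis genes was -0.53 on it and -0.66 in line 178119. Without the 28545 array 23 genes were called lower, and without the 178119 array 11. No difference in drug effect between the lines passed the limma test in the 27 genes complete on all arrays. Of these, 2 had an unadjusted p below 0.05, against 3.61% of all genes. With 3 residual degrees of freedom this fit called 0 of 17746 genes, so differences could go undetected. The median for 28545 minus 178119 was 0.09 (-0.13 with centring alone). Kifc1 differed most (0.71 ± 0.11, adjusted p = 0.774) and read lower in 178119 at every time. It lay below 0 in 178119 and above 0 in 28545 at 1, 3 and 6 h.

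**Figure D4:**
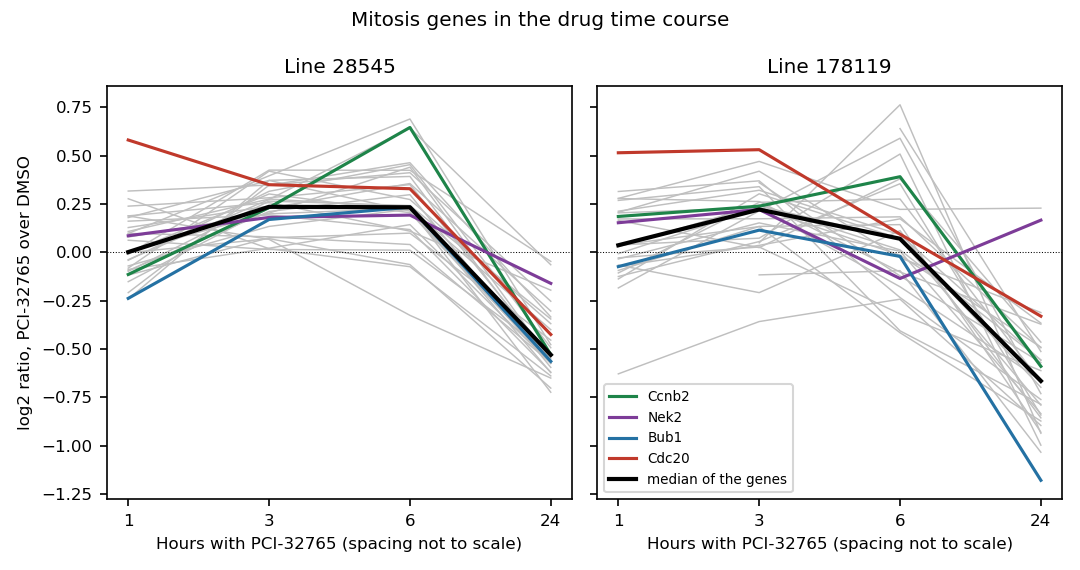
Log2 ratios of PCI-32765 over DMSO (y axis) at 1, 3, 6 and 24 h (x axis, spacing not to scale) in line 28545 (left) and line 178119 (right), with loess. Grey lines are single mitosis genes, the black line is their median: 0.00, 0.24, 0.23 and -0.53 in 28545 and 0.04, 0.22, 0.07 and -0.66 in 178119. With median centring alone, most genes lie above 0 at 1, 3 and 6 h and near 0 at 24 h.

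At 1 h none of 32 genes passed by limma (3 with an unadjusted p below 0.05). Of all genes, 0.241% were called higher and 0.294% lower, and 15.8% had an unadjusted p below 0.05. The median over the mitosis genes was 0.03, or 0.88 with centring alone, where 30 passed as higher. With centring alone equally bright genes had a median of 0.81 at 1 h. Alternative fits called up to 11654 genes of all at 1 h, against 102 in the main fit. The 30 thus cannot be set against the shares above, which are from the fit with loess. Cdc20 stood out at 1 h, reading 0.51 in 178119 and 0.58 in 28545 (mean 0.55 ± 0.10, adjusted p = 0.0526). At 3 h Cdc20 was the only gene to pass as higher (0.53 and 0.35, mean 0.44 ± 0.10, adjusted p = 0.0286), against 3.49% of all genes. The call ended without either 3 h array. The median at 3 h was 0.21, and 28 of 31 genes read above 0 in both lines, against 39.6% of all genes. With centring alone 32 passed as higher, but equally bright genes then had a median of 0.84. Alternative fits called up to 11667 genes of all at 3 h, against 1464 in the main fit, so the 32 cannot be set against 3.49%.

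At 6 h, 8 genes were called higher and 1 lower, against 12.6% and 12.5% of all genes tested. The 8 were Birc5 (0.61), Ccnb2 (0.52), Spc25 (0.49), Incenp (0.46), Plk1 (0.40), Cenpe (0.33), Aurka (0.33) and Cdca8 (0.30), and the number was 15 with centring alone. The shares above are from the fit with loess and do not apply to the 15. Birc5 read 0.76 in 178119 and 0.45 in 28545 (mean 0.61 ± 0.14, adjusted p = 0.0133). Plk1 read 0.59 and 0.21 (mean 0.40 ± 0.13, adjusted p = 0.0422). All 3 measured passenger complex genes were among the 8 with their brightest probes. The dimmer Birc5 probes read -0.04 and 0.12 in 178119 and 0.01 and 0.05 in 28545 at 6 h. The dimmer Cdca8 probe read -0.01 in 178119 and 0.06 in 28545, and that of Incenp 0.73 and 0.15. Bub1b was lower (-0.42 and -0.33, mean -0.37 ± 0.10, adjusted p = 0.0215), and read 0.06 with centring alone. Fewer were called in other fits: 4 genes were called higher with the cell line as a block, 2 with the scanner's log ratios and 1 without the 178119 array at 6 h.

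The change over time was tested as the drug effect at 24 h minus that at 1 h, in which a shift common to both times cancels. The effect was lower at 24 h in 14 genes and higher in none, against 3.89% of all genes called lower. The median of this difference was -0.60 with loess and -0.996 with centring alone. Of the 32 genes tested, which leave out Mki67, Cdc20 had the largest difference (-0.93 ± 0.14, adjusted p = 0.00659). Its ratios were -0.33 and -0.42 at 24 h, against 0.51 and 0.58 at 1 h. Bub1b (-0.87 ± 0.14, adjusted p = 0.00715), Top2a (-0.87 ± 0.19, adjusted p = 0.0317), Ttk (-0.81) and Ube2c (-0.81) came next, and Nek2 (-0.12) was the smallest. Leaving out single arrays left 2 to 14 genes, the fewest without the 1 h array of line 28545, and the scanner's log ratios left 1. With 5 genes missing on the 1 h array of 178119 (Top2a, Birc5, Nusap1, Kif20a and Incenp), their 1 h values rest on line 28545.

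Averaged over the 4 times, 2 genes were higher, Cenpf (0.25) and Cdc20 (0.21), and 4 lower, Top2a (-0.24), Bub1b (-0.23), Ccnb1 (-0.18) and Nuf2 (-0.17). The background was 17.4% of genes called higher and 16% lower. With centring alone 32 were higher and none lower. Alternative fits called up to 14250 genes of all over the 4 times, against 6360 in the main fit. The 32 thus cannot be set against the 17.4%, which is from the fit with loess.

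Other genes of the cell cycle were counted in lists chosen by function. Of 64 further mitosis genes tested, 56 were higher and none lower in lymphoma lines than in untreated cells (median 1.45), led by Ska1 (3.62), Ckap2l (2.62) and Sgo1 (2.52). Of 29 S phase genes, 21 were higher (median 1.20), among them Mcm6 (1.71), a subunit of the replicative helicase, and Gins2 (1.67), a helicase cofactor. The list of cell cycle transcription factors, which also counts the cofactor Rb1, split. Of its 17 genes 7 were higher, among them Foxm1 (1.92), the mitotic forkhead factor, and 1 was lower. Of 11 core subunits of the APC/C, 1 was higher (Anapc5, 0.58) and 1 lower (Anapc2, -0.41). Of all genes tested, 18.6% were higher and 25.3% lower.

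At 24 h of PCI-32765 the further mitosis genes read a median of -0.53, with 51 of 64 called lower, led by Ska1 (-1.11), Spc24 (-0.94) and Pbk (-0.92). S phase genes read -0.63, with 21 of 29 lower, among them Lig1 (-0.92), the ligase that joins Okazaki fragments, and Cdc6 (-0.87), a replication licensing factor. Of the APC/C subunits 3 of 11 were lower, with a median of -0.18. Of 17 genes on the transcription factor list 8 were lower, Rb1 most (-0.79), and 3 higher, E2f2 most (0.70). Of all genes tested, 12.9% were called lower and 11.8% higher at 24 h. The 24 h calls of the mitosis genes above depended on loess, and the calls of these lists without loess were not computed. At 6 h 11 of 64 further mitosis genes were called higher and 1 lower, against 12.6% higher and 12.5% lower over all genes.

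**Figure D5:**
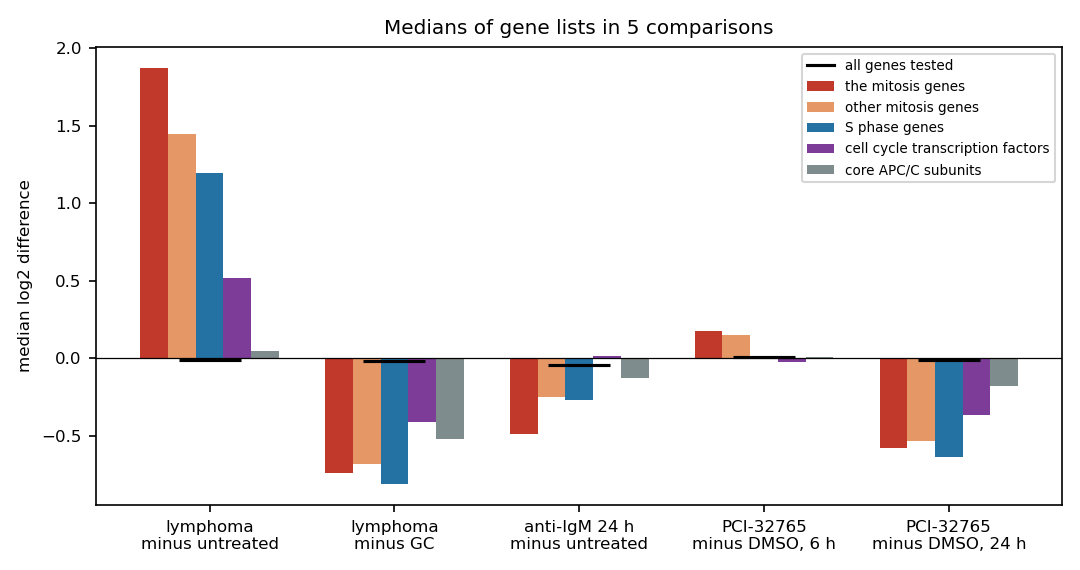
Median log2 difference (y axis) of 5 gene lists in 5 comparisons, drug comparisons with loess, with the median of all genes tested as a black dash. The mitosis genes stand at 1.87 for lymphoma minus untreated cells, -0.74 for lymphoma minus GC cells, -0.48 for anti-IgM 24 h minus untreated cells, and 0.17 and -0.57 for PCI-32765 minus DMSO at 6 and 24 h; with median centring alone the last 2 were 0.57 and -0.079.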

How the data were processed

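Agilent two-colour mouse arrays were used, 1 file of scanner output per array. Per the file headers, Feature Extraction 10.1.1.1 read each spot as a red and a green intensity and gave a log10 ratio of red over green. The submitters' processing notes name Feature Extraction 9.1 and limma. From the deposited intensity columns, the mean signals were corrected for background with normexp (offset 50) and normalized within each array by loess in limma 3.58.1 (R 4.3.3). Control spots and outlier spots were left out. The deposited log10 ratio, turned to log2, served as an alternative. Each gene was read from its brightest probe and tested where the red or the green spot was well above background on a share of 0.5 or more of the arrays fitted. Arrays with under 40% of red spots above background were left out where the sample had another array, and repeat arrays were averaged.

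One limma fit (lmFit and eBayes, 10 residual degrees of freedom) covered the classes of the pool arrays, 21541 genes, and another (4 residual degrees of freedom) the 4 drug times, 19076 genes, with Benjamini-Hochberg adjustment over all genes and a threshold of 0.05. A difference is followed by its standard error. The fits were first tested on simulated data. Changes of 1 log2 unit given to 50 genes were called in 70% for lymphoma minus untreated cells and 50% for lymphoma minus GC cells. For anti-IgM 24 h minus untreated cells it was 34%, and 68% for changes of 2. At 24 h of PCI-32765, 48% of changes of 0.5 and 100% of changes of 1 were called. Changes of these sizes could thus go uncalled, among these most often at 24 h of anti-IgM. The changed genes were drawn at random from all genes tested. On the pool arrays the mitosis genes varied more over the lymphoma lines (median SD 0.47, against 0.24). The shares called are thus not those of the mitosis genes, for which they may be lower. Cell line pairs the drug arrays, since each line was sampled at all 4 times. Deviations of a line correlated between times by -0.35 to 0.23.

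The genes and lists were chosen with earlier results of these data known. Full statistics are given for Mki67, Top2a, Ccnb1, Cdk1, Plk1, Aurkb, Bub1, Cdc20, Ndc80, Kif11, Tpx2 and Cenpa and for the 4 largest and 2 smallest differences of a comparison, and for other lists up to 3 members past the test. Alternatives were other background corrections, centrings, filters, probe rules, priors, blocks and samples left out.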

Additional observations from a re-analysis of the deposited data

Results flagged for a closer look

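For 14 mitosis genes the effect of PCI-32765 differed between 24 h and 1 h by the limma test of that difference, all lower at 24 h. The effect at 24 h minus that at 1 h was -0.93 for Cdc20, -0.87 for Bub1b and for Top2a, -0.81 for Ttk and for Ube2c, -0.80 for Ccna2 and -0.76 for Cdc25c. It was -0.72 for Ccnb1, -0.69 for Kif11, -0.66 for Tpx2, -0.62 for Cdca8, -0.61 for Aurka and -0.59 for Ccnb2 and for Nuf2. The background was 3.89% of all genes, and the median over the mitosis genes was -0.996 with median centring alone. Under that scaling the median of all genes also moved, to 0.31 at 24 h, against 0.62 at 1 h, and that of equally bright genes to 0.43, against 0.81. Only 2 arrays stand behind each time. Among 34 sets of 9 lymphoma lines, none held a line standing apart by Dixon's test.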

How the results depend on the processing

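The higher level in lymphoma lines than in untreated cells was the steadiest result, with 31 to 33 genes called when single samples were left out. For lymphoma minus GC cells the 7 genes called lower became 12 with median centring, 3 with all arrays averaged, 0 with slide as a fixed block and 0 with genotype as a further term, and 6 to 14 when single samples were left out. GC minus untreated cells had a median of 3.19 with median centring. At 6 h of anti-IgM, 1 gene was called lower with no background subtraction, with probes above background on every array, with probe means and with slide as a fixed block, 2 with all arrays averaged, and 0 to 5 when single samples were left out.

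Median centring without loess changed the drug results at each time. Over the 4 times it gave 32 genes higher, 0 lower and a median of 0.67, at 1 h 30 higher and 0.88, at 3 h 32 higher and 1.16, at 6 h 15 higher, 0 lower and 0.57, and at 24 h 0 lower and -0.079. Of all genes, alternative fits called up to 14250 over the 4 times, 11654 at 1 h and 11667 at 3 h. The main fit called 6360, 102 and 1464. The median of 24 h minus 1 h was -0.996 and that of line 28545 minus 178119 was -0.13. Among named genes it turned the mean of 4 times to 0.39 (Top2a), 0.56 (Ccnb1), 0.45 (Cdk1), 0.43 (Bub1), 0.57 (Tpx2) and 0.70 (Cenpa). It turned the 1 h values to 0.90 (Ccnb1), 0.71 (Cdk1), 0.98 (Plk1), 0.68 (Bub1) and 0.69 (Ndc80), the 3 h values to 0.96 (Top2a) and 0.96 (Ccnb1), and the 24 h values to 0.19 (Cdc20) and 0.0050 (Cenpa). The scanner's log ratios gave 1 higher and 0 lower over the 4 times, 0 higher at 3 h, 2 higher and 0 lower at 6 h, 20 lower at 24 h and 1 lower for 24 h minus 1 h. At 1 h, 1 gene was higher with no filter, with probe means, with an intensity trend and robust prior, and with outlier spots kept, a setting chosen after seeing the data. At 3 h, 2 were higher with probe means and 2 with the trend and robust prior. At 6 h, 5 were higher with no filter. With cell line as a block, 4 were higher at 6 h and 22 lower at 24 h. The cause of these changes was not tested.

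Leaving out single drug arrays gave 1 to 2 genes higher and 1 to 6 lower over the 4 times, 0 to 2 higher at 3 h, 1 to 9 higher and 0 to 1 lower at 6 h, 11 to 27 lower at 24 h and 2 to 14 lower for 24 h minus 1 h. The medians ran from 0.070 to 0.233 at 6 h, from -0.665 to -0.530 at 24 h and from -0.698 to -0.556 for 24 h minus 1 h.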
